A study of Mus musculus with 4 samples.

Results

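The *Tet1* and *Tet2* loci carried 12 of the 21066 NANOG windows measured in mouse embryonic stem cells (ESCs), 6 at each gene. The windows were selected by position, at loci chosen with earlier results of these data known. All those centred in *Tet1* on chromosome 10, in *Tet2* on chromosome 3, or within about 100 kb of either gene were taken, in GRCm38/mm10 coordinates. Each window is 351 bp wide and centred on a NANOG peak summit. Signal is in RPKM, the reads of a window divided by its length and by the size of the library. All 12 windows reached 0.9 RPKM in at least 1 condition, the level at which a window is called bound here, so they are 12 of the 16608 bound windows.

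The signal is chromatin immunoprecipitation sequencing (ChIP-seq) with an antibody against NANOG in ZHBT-O4AID ESCs, a line of strain 129SV with genotype Oct4-/-. The endogenous Oct4 genes are inactive, and a TetOFF Oct4 transgene was silenced with doxycycline in both conditions. The only OCT4 left was Oct4AID, a fusion to an auxin-inducible degron made from the constitutive CAG promoter, in cells that also carry CAG Tir1, the plant adaptor that brings the tagged protein to the proteasome once auxin is present. All cells grew in N2B27 with PD03, Chiron, mLIF and doxycycline. Uninduced cells (2 replicates) received no auxin, and IAA cells (2 replicates) received 500 μM indole-3-acetic acid for 1.5 h. No library came from cells without the degron, so a response to auxin itself cannot be told apart from one to OCT4 loss. The question put to these data is how NANOG occupancy at *Tet1* and *Tet2* compares before and soon after removal of OCT4.

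TET1 and TET2 oxidise methylated cytosine in DNA, which opens the way to its removal, and both genes are active in naive ESCs. Both proteins are known partners of NANOG in these cells. NANOG, OCT4 and SOX2 commonly occupy the same distal elements of pluripotency genes, with OCT4 and SOX2 binding side by side on composite DNA sites. TET1 carries a CXXC domain that binds CpG-rich DNA, whereas TET2 lacks one.

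The windows are numbered 5′ to 3′ along each gene, and both genes lie on the minus strand. *Tet1* (chr10:62804570-62908996) holds windows 2 to 6, all in introns except that window 4 overlaps the first exon of a shorter transcript, while window 1 lies 85.4 kb upstream of the gene, inside the neighbouring gene *Rufy2* and outside its exons. *Tet2* (chr3:133463679-133545139) holds windows 2 to 5, all in its first intron, while window 1 lies 27.1 kb upstream inside the antisense gene *Gm42567* and window 6 lies beyond the 3′ end of *Tet2* in intergenic DNA. Windows 3 and 4 of *Tet1* and windows 2 to 5 of *Tet2* have an OCT4 site within 1 kb. These OCT4 sites came from published V6.5 ESCs, a different line, so the flag says where OCT4 binds in ESCs and not how much was bound in these libraries. The same windows except *Tet2* window 3 carry the active enhancer flag. *Tet2* window 6 has the repressed flag, and no member has the promoter flag.

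**Figure D1:**
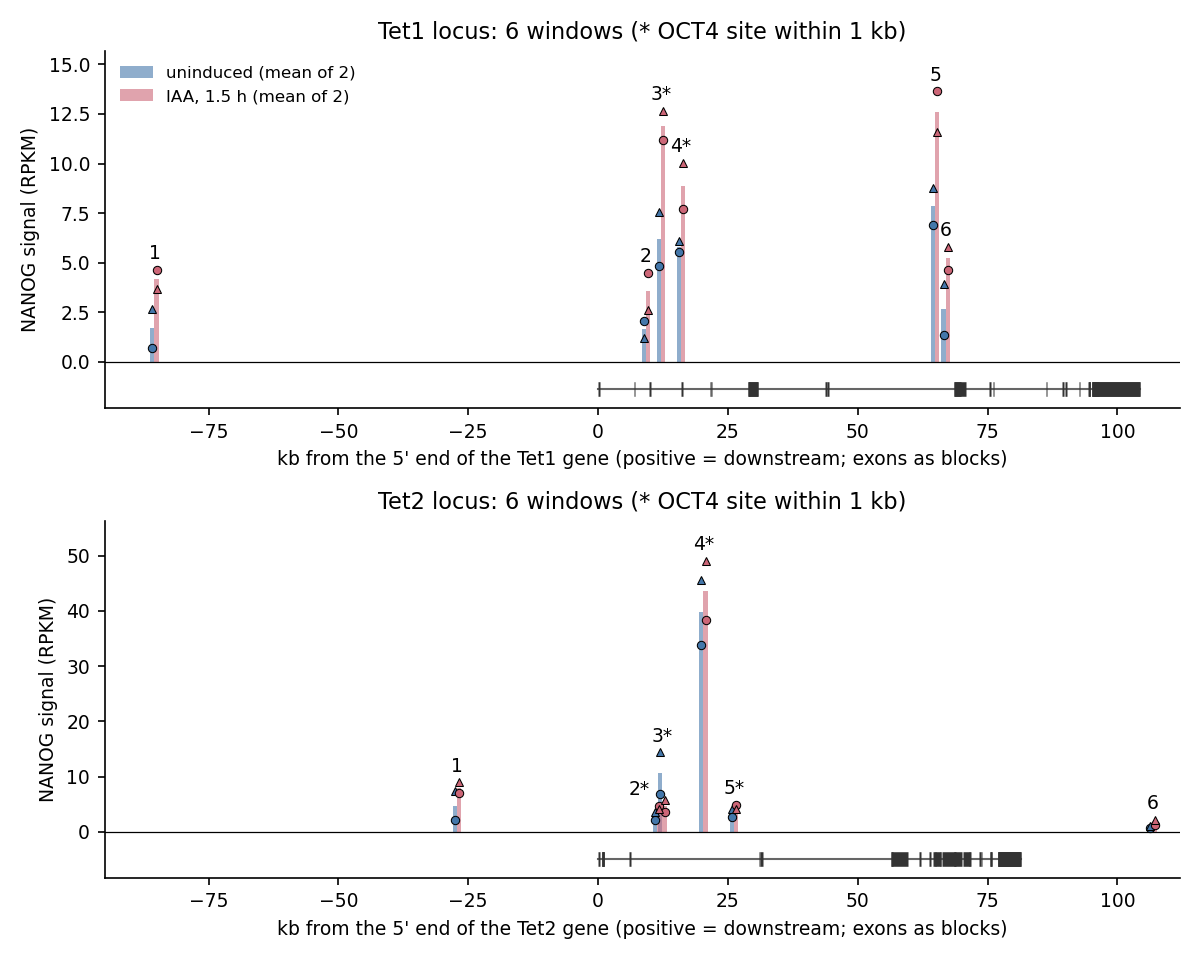
NANOG signal in RPKM (vertical axis) against distance in kb from the 5′ end of each gene (horizontal axis), with bars for the mean of the 2 uninduced (blue) and 2 IAA (red) libraries, circles and triangles for replicates 1 and 2, exons as black blocks below, and the vertical scale set for each gene. Bars are drawn side by side and wider than the windows, so those of Tet2 windows 2 and 3 overlap. Signal at Tet2 is concentrated in window 4, with a mean of 39.8 RPKM uninduced and 43.7 after IAA, and at Tet1 it is spread over windows 3 to 5.

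The central 201 bases of 6 windows are shown, plus strand of GRCm38. *Tet2* window 4 (chr3:133524743-133524943) has the strongest signal of either locus, *Tet2* window 3 (chr3:133532633-133532833) is the one window that was lower after IAA, and *Tet2* window 2 (chr3:133533611-133533811) is its neighbour at 978 bp. *Tet1* window 5 (chr10:62844005-62844205) is the strongest at its locus, *Tet1* window 4 (chr10:62892946-62893146) covers a transcript start, and *Tet1* window 1 (chr10:62994304-62994504) is the one that passed the test. Capitals mark matches to the motifs described after them.
Tet2 window 4: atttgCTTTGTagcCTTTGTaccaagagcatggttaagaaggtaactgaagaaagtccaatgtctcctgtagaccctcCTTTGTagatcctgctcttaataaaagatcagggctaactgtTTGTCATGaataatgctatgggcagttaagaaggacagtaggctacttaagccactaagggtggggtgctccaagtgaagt
Tet2 window 3: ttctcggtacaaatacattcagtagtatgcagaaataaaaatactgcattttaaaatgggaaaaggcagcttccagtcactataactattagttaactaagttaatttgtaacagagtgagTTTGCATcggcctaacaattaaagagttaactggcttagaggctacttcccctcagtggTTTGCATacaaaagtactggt
Tet2 window 2: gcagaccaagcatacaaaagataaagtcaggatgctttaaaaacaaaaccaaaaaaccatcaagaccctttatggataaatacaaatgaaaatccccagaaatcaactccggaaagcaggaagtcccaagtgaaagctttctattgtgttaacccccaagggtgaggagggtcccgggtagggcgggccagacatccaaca
Tet1 window 5: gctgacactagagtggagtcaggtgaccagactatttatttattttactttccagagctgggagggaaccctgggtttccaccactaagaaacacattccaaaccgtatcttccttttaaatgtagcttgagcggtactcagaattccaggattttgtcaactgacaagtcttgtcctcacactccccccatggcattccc
Tet1 window 4: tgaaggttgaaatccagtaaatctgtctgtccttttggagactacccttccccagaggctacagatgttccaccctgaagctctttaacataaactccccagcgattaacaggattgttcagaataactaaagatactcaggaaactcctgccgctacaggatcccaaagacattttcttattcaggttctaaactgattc
Tet1 window 1: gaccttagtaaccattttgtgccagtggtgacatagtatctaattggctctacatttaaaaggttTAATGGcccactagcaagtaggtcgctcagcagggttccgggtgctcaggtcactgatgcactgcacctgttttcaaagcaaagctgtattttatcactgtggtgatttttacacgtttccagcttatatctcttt

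Short letter strings were searched on both strands over the whole 351 bp of all 21066 windows. The octamer ATGCAAAT, the full OCT4 recognition sequence, matched in none of the 12 windows and in 3.71% of all windows. Its first 7 letters, ATGCAAA, matched in 1 member, *Tet2* window 3, at 2 positions that lie 21 and 80 bp from the centre and read TTTGCAT on the plus strand. That string matched in 9.89% of all windows, in 15.1% of bound windows with an OCT4 site and in 6.996% of the other bound windows. The string TTGTNATG, the junction of a SOX and an OCT half-site, matched as TTGTCATG in *Tet2* window 4, 20 bp from the centre, and as TTGTTATG in *Tet2* window 1. It matched in 7.34% of all windows, in 19.1% of bound windows with an OCT4 site and in 5.55% of the others. Both of these strings were chosen after the sequences had been seen. A match is a description of the letters and not a measured site.

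Of the shorter strings, the SOX string ACAAAG matched at 4 positions in *Tet2* window 4, 3 of them within the stretch printed and written there as CTTTGT. It matched in 5 of the 12 windows and in 43.9% of all windows. The second SOX string, CATTGT, matched in 4 members and in 33.2% of all windows, and the NANOG core string TAATGG in 2 members, *Tet1* window 1 and *Tet2* window 6, and in 19.2% of all windows. *Tet1* windows 4 and 5 and *Tet2* window 2 held none of the strings searched. *Tet2* window 3 had a GC content of 33.3%, below the 39.0% that marks the lowest 5% of bound windows, against a median of 46.2%. The remaining 11 members had 39.9% to 49.6%. Repeat sequence covered all of *Tet2* window 6 and 82.3% of *Tet1* window 2, where reads can be harder to place.

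Depth differed between the 4 libraries and set the counting error of each value. From the steps between RPKM values, uninduced replicates 1 and 2 had 8236968 and 11674801 reads. IAA replicates 1 and 2 had 19634763 and 5406307, so in this order 1 read is worth 0.346, 0.244, 0.145 and 0.527 RPKM. The share of reads inside bound windows was 1.60% and 2.28% in the uninduced libraries and 3.05% and 3.24% after IAA. The 16608 bound windows were higher after IAA as a whole, with a median log2 change of 0.76 and interquartile range of 0.30 to 1.16, and 85.8% of them had a positive change. Values for single windows are therefore given beside this median. Quantile normalization, which makes the distributions of all libraries equal, brought it to 0.038 and the calls of the test from 2493 higher and 56 lower to 0 and 1. What moved all windows together, NANOG on chromatin or the efficiency of each immunoprecipitation, cannot be told apart, since no spiked-in chromatin scales the values.

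At the *Tet1* locus NANOG signal was higher in both IAA libraries than in both uninduced libraries at 6 of 6 windows. Such separation was found at 60.5% of all bound windows, so it was frequent in the whole table. One of these windows passed the limma test over the 16608 bound windows at an adjusted p of 0.05, which called 15.0% of bound windows higher. The median change of the *Tet1* windows was 1.01 on the log2 scale, 0.56 without uninduced replicate 1 and 0.31 after quantile normalization, under which windows 4 and 5 turned to -0.11 and -0.017. The RPKM summed over the 6 windows came to 21.4 and 30.3 for the uninduced libraries and to 46.3 and 46.4 for the IAA libraries. The means were 25.9 ± 6.23 and 46.3 ± 0.0616 (SD, n = 2), a 1.79-fold higher level. All bound windows were higher as well, with a median log2 change of 0.76. They held 1.60% and 2.28% of the reads in the uninduced libraries and 3.05% and 3.24% after IAA.

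The strongest *Tet1* window, number 5, lies 64.9 kb into the gene in an intron of transcript Tet1-201 and has no OCT4 site within 1 kb. Its signal was 6.92 and 8.79 RPKM in uninduced replicates 1 and 2 and 13.6 and 11.6 RPKM in IAA replicates 1 and 2, from 20, 36, 94 and 22 reads. The groups did not overlap, with means of 7.85 ± 1.32 and 12.6 ± 1.45 RPKM (SD, n = 2). The change of 0.68 ± 0.42 (log2, SE) was close to the median of all bound windows and did not pass the test (limma, adjusted p = 0.233). This change was 0.51 without uninduced replicate 1 and 0.85 without uninduced replicate 2.

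*Tet1* windows 3 and 4 have both an OCT4 site and the active enhancer flag and lie 12.1 kb and 16.0 kb into the gene. Window 3 had 4.84 and 7.56 RPKM in uninduced cells and 11.2 and 12.6 RPKM after IAA. Its groups did not overlap, and its change of 0.96 ± 0.42 had an interval of 0.13 to 1.79 and an adjusted p of 0.0939. It was 0.65 without uninduced replicate 1 and 1.28 without uninduced replicate 2. Window 4 overlaps the first exon of the protein-coding transcript Tet1-209, whose start is 60 bp from the window's centre. It had 5.53 and 6.10 RPKM in uninduced cells and 7.69 and 10.01 RPKM after IAA. The groups were again apart, by a narrower gap, and the change was 0.59 ± 0.43 (adjusted p = 0.315). NANOG signal at the enhancer windows of *Tet1* that OCT4 can occupy was thus not lower in RPKM in either IAA library than in the uninduced libraries.

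*Tet1* window 1, in *Rufy2*, was the only member that rose by the test. It had 0.692 and 2.68 RPKM in uninduced cells and 4.64 and 3.69 RPKM after IAA, from 2, 11, 32 and 7 reads. Uninduced replicate 1, with its 2 reads, was well under the other libraries. The change was 1.51 ± 0.57 (interval 0.40 to 2.62) with an adjusted p of 0.0494 from limma. It stood at the 88.8th percentile of changes over bound windows. Without uninduced replicate 1 the change was 0.61. The call was kept under 1 of 10 alternative settings, the omission of uninduced replicate 2, which leaves 1 uninduced library.

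*Tet1* window 2 lies 682 bp from the start of the protein-coding transcript Tet1-206. Its signal was low, with 2.08 and 1.22 RPKM in uninduced cells and 4.50 and 2.63 RPKM after IAA, from 6, 5, 31 and 5 reads. The groups did not overlap and the change was 1.07 ± 0.57 (adjusted p = 0.168). Window 6, in the same intron as window 5 and 2021 bp from it, had 1.38 and 3.90 RPKM in uninduced cells and 4.64 and 5.80 RPKM after IAA. Its change was 1.12 ± 0.49 (limma, adjusted p = 0.0946), 0.40 without uninduced replicate 1 and 1.83 without uninduced replicate 2.

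**Figure D2:**
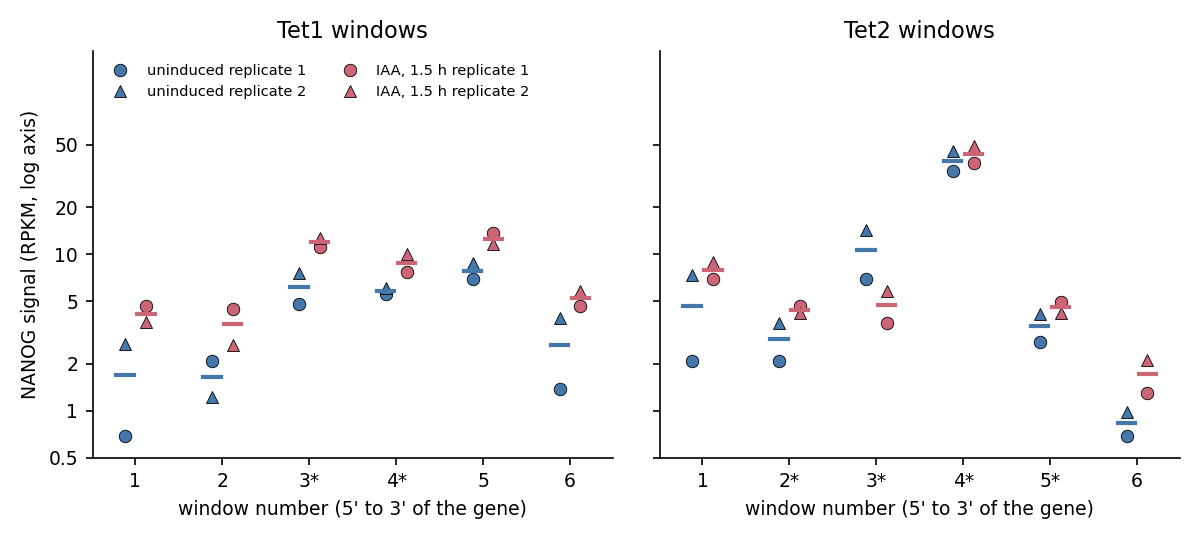
RPKM on a log axis (vertical) for each window by number (horizontal) in the 4 libraries, with blue for uninduced, red for IAA, circles for replicate 1, triangles for replicate 2, short lines for the mean of 2 libraries and asterisks for an OCT4 site within 1 kb. All 6 Tet1 windows have both red symbols above both blue ones, whereas Tet2 window 3 has both below and Tet2 windows 1 and 4 overlap.

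At the *Tet2* locus the windows did not share 1 pattern. Both IAA libraries were above both uninduced libraries at windows 2, 5 and 6, the groups overlapped at windows 1 and 4, and both IAA libraries were below at window 3. Over all bound windows both IAA libraries were above at 60.5% and below at 4.23%. None of the 6 was called in either direction by limma, which called 15.0% of all bound windows higher and 0.337% lower. Windows 1 and 3 had an unadjusted p under 0.05, as had 5648 of the 16608 bound windows. The median change was 0.54, with 0.12 without uninduced replicate 1, 0.88 without uninduced replicate 2 and -0.13 after quantile normalization. Summed over the 6 windows, RPKM came to 48.4 and 76.1 for the uninduced libraries and to 59.8 and 74.3 for the IAA libraries, with means of 62.3 ± 19.6 and 67.0 ± 10.3 (SD, n = 2), and these groups overlapped.

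*Tet2* window 4, in the first intron 20.3 kb from the 5′ end, was the 7th strongest of the 16608 bound windows by mean RPKM. It has an OCT4 site and the active enhancer flag. Its signal was 33.9 and 45.6 RPKM in uninduced cells and 38.3 and 49.0 RPKM after IAA, from 98, 187, 264 and 93 reads. The 2 libraries of each condition lay further apart than the condition means, 39.8 ± 8.30 and 43.7 ± 7.57 RPKM (SD, n = 2). The change was 0.14 ± 0.52, with an interval of -0.88 to 1.16 and an adjusted p of 0.858 (limma). The interval holds both 0 and the bound-window median of 0.76. The SE of 0.52 comes from a trend over all bound windows. It was 0.36 by voom on the recovered reads and 0.21 with a replicate block. By this test, a level that stayed the same is not separated from one that moved with most windows.

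*Tet2* window 4 can also be read against windows of similar height. The 30 bound windows with the highest mean RPKM, which include it, had a median change of 0.71 and 100% of them were positive, with a 5th percentile of 0.26, above the value of window 4. In the same libraries its signal was 4.90 and 5.19 times that of the strongest *Tet1* window in uninduced cells and 2.81 and 4.23 times after IAA. The log2 ratio was taken after adding 0.1 RPKM to each value, so it hardly depends on how libraries are scaled to each other. It was 2.32 ± 0.0619 uninduced and 1.78 ± 0.415 after IAA (SD, n = 2). Both IAA ratios were lower and the difference was -0.54, with a two-sided exact permutation p of 0.333, the smallest that 2 against 2 libraries allow.

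*Tet2* window 3, 978 bp from window 2 in the same intron and 12.4 kb from the 5′ end, was lower after IAA in both libraries. It had 6.92 and 14.4 RPKM in uninduced cells and 3.63 and 5.80 RPKM after IAA, from 20, 59, 25 and 11 reads. The 2 uninduced libraries differed widely from each other, and the lower of them was still above both IAA libraries. Means were 10.7 ± 5.29 and 4.71 ± 1.53 RPKM (SD, n = 2), 2.26-fold lower after IAA. Of all bound windows 4.23% had both IAA libraries below both uninduced ones, and 0.337% were called lower by the test. Windows of its own kind were lower more often. Both IAA libraries were below at 10.7% of the 3930 bound windows with an OCT4 site, of which 45 were called lower. For the 2596 with an OCT4 site and no chromatin class, as in window 3, it was 12.1%, with 32 called lower.

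The log2 change of *Tet2* window 3 was -1.11 ± 0.43 with an interval of -1.95 to -0.26, the 126th lowest of the 16608 bound windows and the 69th lowest of the 3930 with an OCT4 site. It missed the threshold by a small margin (limma, unadjusted p = 0.010 and adjusted p = 0.0582). The adjusted p was 0.0341 by voom on the recovered reads, 0.0399 with a replicate block and 5.71e-04 without uninduced replicate 1, where the lone uninduced library is assumed to vary like the others. Under the other 7 alternatives it did not pass, with adjusted p from 0.0589 with a pseudocount of 0.5 to 0.571 without IAA replicate 1. The change was negative under all 10 alternatives, with its smallest size, -0.58, without uninduced replicate 2. Relative to the median of bound windows it was -1.86, and between -1.53 and -2.20 over the alternatives. The GC content of the window was also low. The 9 bound windows with an OCT4 site and a GC content of 35% or less, *Tet2* window 3 among them, had a median change of -0.44, against 0.39 for all 3930 with an OCT4 site and 0.61 for the 67 bound windows of that GC content. The limit of 35% was not planned, and the part of GC content in the result was not tested.

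The neighbours of window 3 did not show the same values. Window 2, at 978 bp, had 2.08 and 3.66 RPKM in uninduced cells and 4.64 and 4.22 RPKM after IAA, a change of 0.66 ± 0.49 (adjusted p = 0.326) that came to 0.27 without uninduced replicate 1. Window 5, 26.2 kb into the gene, had 2.77 and 4.15 RPKM in uninduced cells and 4.93 and 4.22 RPKM after IAA, a change of 0.42 ± 0.48 (adjusted p = 0.529) that came to 0.13 without it. Both have an OCT4 site and the active enhancer flag, and in window 5 the groups were nearly touching. The flags do not tell whether windows 2 and 3 share 1 OCT4 site.

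Ratios within a library set window 3 against these neighbours, free of scaling except for the 0.1 RPKM added before log2. The signal of window 3 was 3.33 and 3.93 times that of window 2 in uninduced cells and 0.781 and 1.38 times after IAA. Window 3 was thus the higher of the pair in both uninduced libraries, by more than in either IAA library, and the log2 ratio differed by -1.77 (pooled SD 0.419). Against window 4 the ratio was 0.204 and 0.316 without auxin, against 0.0947 and 0.118 with it, a log2 difference of -1.25 (pooled SD 0.345). Both comparisons gave the exact permutation p of 0.333, the smallest possible, and both pairs were chosen after their values had been seen.

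Counted as reads of the locus, *Tet2* window 4 held 70.0% and 59.9% of the reads in the 6 *Tet2* windows in uninduced cells and 64.1% and 66.0% after IAA, so the conditions overlapped. Window 3 held 14.3% (95% Wilson interval 9.44% to 21.04%) and 18.9% (15.0% to 23.6%) in uninduced cells, and 6.07% (4.14% to 8.80%) and 7.80% (4.41% to 13.4%) after IAA. The intervals cover counting error only, and those of uninduced replicate 1 and IAA replicate 2 overlap. At *Tet1*, window 5 held 32.3%, 29.0%, 29.5% and 25% in the same order of libraries, and no window held most of the reads.

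**Figure D3:**
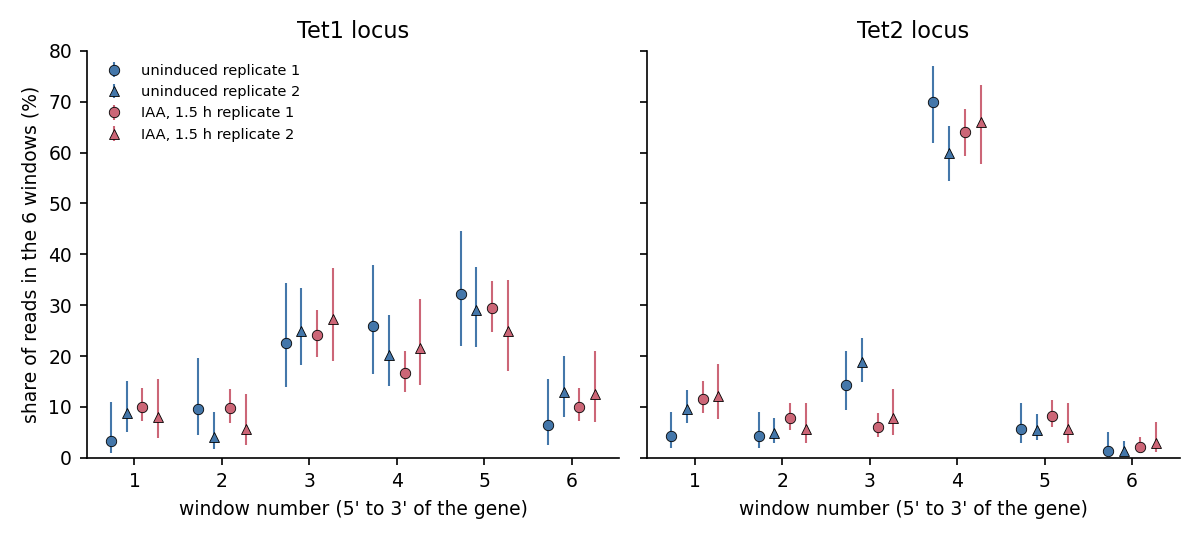
Share of the reads in the 6 windows of each locus (vertical axis, %) held by each window (horizontal axis, window number) in the 4 libraries, with 95% Wilson intervals for counting error. Tet2 window 4 holds 59.9% to 70.0% in every library, and Tet2 window 3 holds 14.3% and 18.9% in uninduced cells against 6.07% and 7.80% after IAA.

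The outer windows of *Tet2* carried no OCT4 site. Window 1, in *Gm42567*, had 2.08 and 7.32 RPKM in uninduced cells and 6.96 and 8.96 RPKM after IAA. The groups overlapped because uninduced replicate 2 was above IAA replicate 1, and the change was 0.99 ± 0.44 (adjusted p = 0.0958). It rested on the uninduced libraries, with 0.11 without replicate 1 and 1.88 without replicate 2. Window 6 was the weakest member, with 0.692 and 0.976 RPKM in uninduced cells and 1.31 and 2.11 RPKM after IAA, from 2, 4, 9 and 4 reads. At these counts its change of 0.93 ± 0.75 (adjusted p = 0.366) was within the error.

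Split by the OCT4 flag, the 6 members with an OCT4 site had a median change of 0.50 (range -1.11 to 0.96) and the 6 without had 1.03 (range 0.68 to 1.51). One of the 6 with a site, *Tet1* window 3, and 5 of the 6 without lay above the median of all bound windows. The same medians over the whole table were 0.39 for 3930 bound windows with an OCT4 site and 0.86 for 12678 without, so the members followed the order of the table. At *Tet2* 4 of 6 windows have an OCT4 site, at *Tet1* 2 of 6, so the loci differ in this flag as well as in their values. The difference between the loci was not tested, since windows are not replicates of the treatment.

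**Figure D4:**
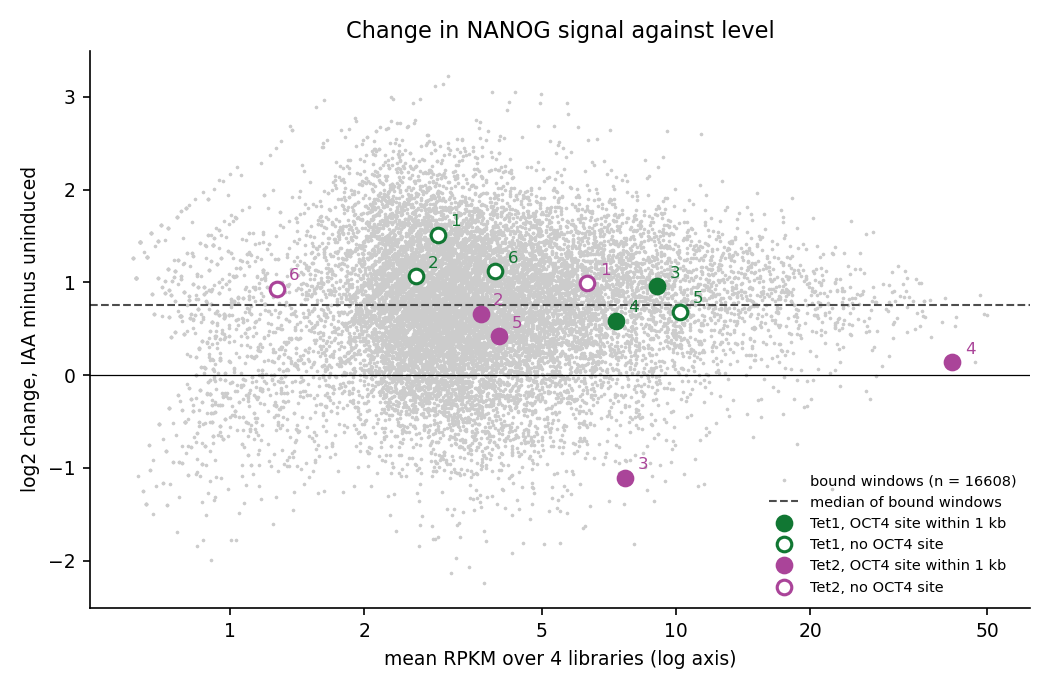
Log2 change in NANOG signal, IAA minus uninduced (vertical axis), against mean RPKM over 4 libraries on a log axis (horizontal), for 16608 bound windows (grey) and the 6 Tet1 (green) and 6 Tet2 (purple) windows, filled where an OCT4 site lies within 1 kb. The dashed line is the bound-window median of 0.76, and Tet2 window 3 at -1.11 and Tet2 window 4 at 0.14 are the members farthest under it.

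Other genes that write, protect or remove DNA methylation were taken as a list of 13, of which 12 had bound NANOG windows within 100 kb of the gene body, 33 windows in all. *Dnmt3l*, the cofactor of the de novo methyltransferases, had none. Of the 33 windows 29 had a positive change, against 85.8% of all bound windows, and the median was 0.68 against 0.76. Both IAA libraries were above both uninduced libraries at 20 of 33 and below them at 2, against 60.5% and 4.23% of all bound windows. The list thus lay near the whole table in these measures. By limma 7 were called higher (*Dnmt3b* 3, *Dnmt3a* 1, *Dppa3* 1, *Mbd4* 1 and *Cxxc4* 1) and 1 lower (*Ogt*), where 15.0% and 0.337% of all bound windows were called, and the list was chosen with earlier results known. These calls became 0 in both directions with quantile normalization, with no variance trend, and without either IAA library. The windows were assigned by distance, and their target genes are not known.

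Among the oxidases, the third family member *Tet3* had its strongest window inside the gene (chr6:83421767-83422117) with an OCT4 site. It had 5.88 and 9.76 RPKM in uninduced cells and 9.72 and 15.3 RPKM after IAA, overlapping by a narrow margin, and its change of 0.68 ± 0.42 (adjusted p = 0.235) matched that of the strongest *Tet1* window in size. None of the 3 bound windows of *Tet3* passed the test. *Tdg*, the glycosylase that excises the oxidised bases, had 2 bound windows and no call. Its strongest had 3.80 and 0.976 RPKM in uninduced cells and 2.76 and 4.74 RPKM after IAA, and the groups overlapped. The weaker *Tdg* window had 1.73 and 1.22 RPKM in uninduced cells and 1.16 and 0.527 RPKM after IAA, so it was below in both IAA libraries (change -0.81 ± 0.78, adjusted p = 0.455).

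Around *Dnmt3b*, a de novo methyltransferase, the strongest window lies 54.5 kb outside the gene (chr2:153742018-153742368). It had 1.04 and 4.15 RPKM in uninduced cells and 10.6 and 7.38 RPKM after IAA, and it rose by 2.02 ± 0.46 on the log2 scale (limma, adjusted p = 0.00216). The 2 other *Dnmt3b* windows that passed rose by 1.96 (adjusted p = 0.00468) and 1.73 (adjusted p = 0.0203), and the latter has an OCT4 site. All 6 *Dnmt3b* windows had a positive change. For *Dnmt3a*, the other de novo enzyme, the strongest window lies 67.1 kb outside the gene and has an OCT4 site. It had 5.53 and 7.56 RPKM in uninduced cells and 4.93 and 5.80 RPKM after IAA, with overlap. The change was -0.27 ± 0.44 (adjusted p = 0.665). The 1 *Dnmt3a* window called was another, without an OCT4 site, that rose by 1.61 ± 0.55 (adjusted p = 0.0329). *Dnmt1*, the maintenance methyltransferase, and *Uhrf1*, which recruits it, had 5 bound windows in all and no call. The strongest *Dnmt1* window, 55.0 kb outside the gene, had 1.38 and 2.20 RPKM in uninduced cells and 3.92 and 3.16 RPKM after IAA. The groups did not overlap. The strongest *Uhrf1* window had 3.11 and 9.27 RPKM in uninduced cells and 7.25 and 4.22 RPKM after IAA, inside the spread of the uninduced pair.

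The other base excision repair enzymes of the list had 5 bound windows, none with an OCT4 site within 1 kb. *Smug1*, a uracil glycosylase, had its strongest window 6.35 kb outside the gene, with 5.53 and 6.34 RPKM in uninduced cells and 12.3 and 13.2 RPKM after IAA. The groups were clearly apart, and the change of 1.09 ± 0.42 missed the threshold with an adjusted p of 0.0576. *Neil1*, another glycosylase, had 1 window with 1.38 and 1.95 RPKM in uninduced cells and 4.06 and 2.63 RPKM after IAA (adjusted p = 0.220). *Mbd4*, which removes thymine from mismatches at CpG sites, had 2.42 and 2.93 RPKM in uninduced cells and 4.21 and 3.69 RPKM after IAA at its strongest window (adjusted p = 0.432), and its weaker window rose by 1.52 ± 0.54 (adjusted p = 0.0376). Both IAA libraries were above both uninduced ones at all 5 of these *Smug1*, *Neil1* and *Mbd4* windows and at neither of the 2 *Tdg* windows, against 60.5% of all bound windows. *Cxxc4*, which encodes a CXXC protein that binds TET2, had 1 window 91.2 kb outside the gene, with 1.73 and 0.732 RPKM in uninduced cells and 3.19 and 4.74 RPKM after IAA, and it rose by 1.69 ± 0.60 (adjusted p = 0.0375).

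The window near *Ogt* (chrX:101720419-101720769), 36.2 kb outside the gene for the enzyme that adds N-acetylglucosamine to proteins and binds TET proteins, was the one of the list called lower. It had 6.23 and 9.52 RPKM in uninduced cells and 3.34 and 2.63 RPKM after IAA, and the groups did not overlap. Its change was -1.35 ± 0.45 (adjusted p = 0.0300), and it has an OCT4 site, as *Tet2* window 3 does. *Dppa3*, which protects DNA from methylation in early embryos, had 5 bound windows. It lies in a cluster of genes that includes *Nanog*, and the gene nearest to each of these windows was not looked up. The strongest (chr6:122702442-122702792) has an OCT4 site and lies 72.3 kb outside the gene. It had 5.19 and 9.76 RPKM in uninduced cells and 13.3 and 11.6 RPKM after IAA, apart but not called (adjusted p = 0.164). The 1 *Dppa3* window called rose by 1.78 ± 0.51 (adjusted p = 0.0120) with an OCT4 site within 1 kb. Calls of both directions on the list therefore included windows with an OCT4 site. Over the whole table an OCT4 site was present at 263 of the 2493 higher calls and at 45 of the 56 lower calls.

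**Figure D5:**
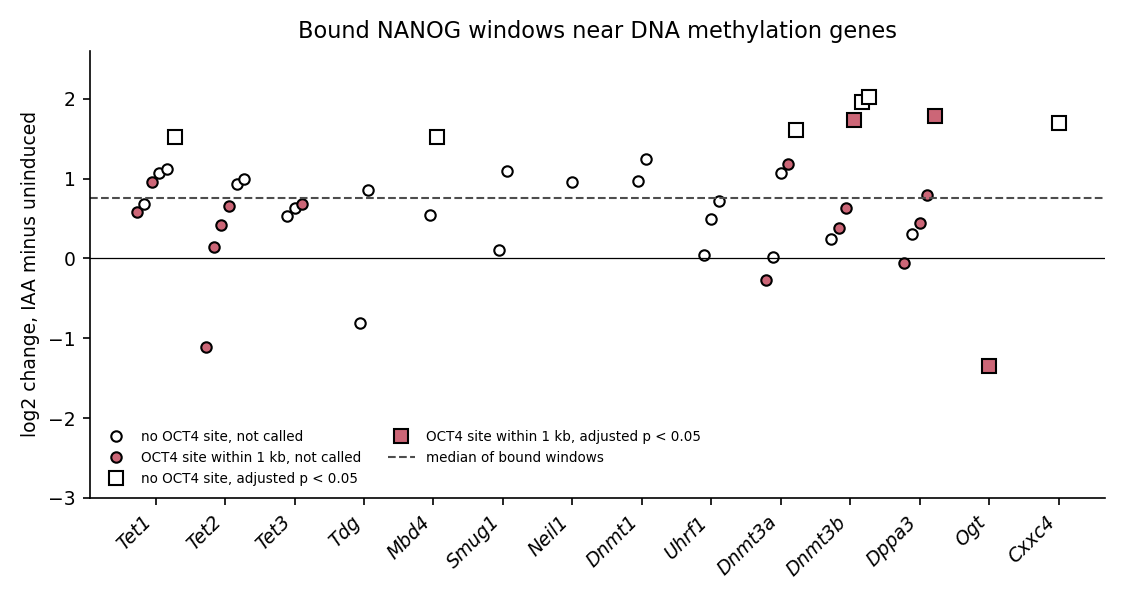
Log2 change in NANOG signal, IAA minus uninduced (vertical axis), for each bound window near Tet1, Tet2 and the 12 listed genes that had any (horizontal axis), with red fill for an OCT4 site within 1 kb and squares for windows called by limma. Squares stand above 1.5 for Tet1, Mbd4, Dnmt3a, Dnmt3b, Dppa3 and Cxxc4 and at -1.35 for Ogt, and Tet2 has none.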

How the data were processed

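NANOG ChIP-seq was measured in 4 libraries, which the labels place in 2 groups of 2, and per the study's methods the replicates are independent immunoprecipitations. P-values thus rest on spread between immunoprecipitations, pooled over windows. In the main fit a window's SE and interval follow a trend with signal level over all bound windows, and hardly its own libraries. The submitters' notes name Bowtie2 2.3.4.3, MACS2 and deepTools, and per the methods the authors aligned reads to mm10, called peaks on both conditions pooled and computed the deposited RPKM values with DiffBind in windows around the summits. By their coordinates all windows are 351 bp wide. RPKM relates a window to the total reads of its library and was not scaled to spiked-in chromatin. The deposited flags mark an OCT4 site within 1 kb and chromatin classes, both from published data on other ESC lines. No window was listed at 0, so 0 reads and 1 read cannot be told apart, and no member was at 1 read.

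All RPKM values were whole multiples (within 0.01) of the smallest in their library, which gave reads and depth. Changes are IAA minus uninduced on log2(RPKM + 0.1), a scale that understates changes at low values, tested with limma 3.58.1 in R 4.3.3 (lmFit, eBayes with trend, two-sided) over 16608 windows with 0.9 RPKM or more in either condition. Benjamini-Hochberg adjustment covered all of these windows, with a threshold of 0.05. Ratios within a library were compared by exact permutation, as log2 ratios with 0.1 RPKM added to each value. Intervals of changes are 95% intervals from limma. On simulated data 200 of 16608 windows were changed in the comparison of IAA with uninduced, as many up as down. There limma recovered 39.0% of 4-fold and 69.5% of 8-fold changes, with 0 and 2 false calls. The simulation used a fixed dispersion and, unlike these libraries, had no shift of all windows. Its count of false calls thus does not carry over to them. Positions, 1-based, and sequences came from the mouse GENCODE release M21 and GRCm38.p6, the build of the files.

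Windows given in full were the strongest at each locus, those called, those with an OCT4 site and those within 1 kb of a transcript start of *Tet1* or *Tet2*. The other windows are given in fewer words. For the other DNA methylation genes, the strongest window of each and those called are given. The members, lists and tests were chosen with earlier results of these data known. The alternatives were a pseudocount of 0.5, all windows, quantile normalization, a replicate block, no variance trend, voom on recovered reads and omission of each library.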

Additional observations from a re-analysis of the deposited data

How the results depend on the processing

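Quantile normalization, which gives every library the same distribution, moved the median change of all bound windows from 0.76 to 0.04, the median of the *Tet1* windows from 1.01 to 0.31 and that of the *Tet2* windows from 0.54 to -0.13. *Tet1* windows 4 and 5 then had changes of -0.11 and -0.017, and *Tet2* windows 2, 4, 5 and 6 had -0.031, -0.39, -0.24 and -0.028. Relative to the median of bound windows, *Tet2* window 4 was between -0.43 and -0.80 under all 10 alternatives. *Tet2* window 4 also turned negative without uninduced replicate 1 (-0.075) and without IAA replicate 2 (-0.038), and ranged up to 0.35 without uninduced replicate 2. The direction of 6 windows (*Tet1* 1, 2, 3 and 6 and *Tet2* 1 and 3) was the same under all 10 alternatives.

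Over the whole table the 2493 higher and 56 lower calls became 0 and 1 with quantile normalization (1164 and 1382 at an unadjusted p under 0.05) and 157 and 0 with no variance trend (4893 and 131 unadjusted). The 1 call at *Tet1* and *Tet2* became 0 with a pseudocount of 0.5, all windows, quantile normalization, the replicate block, no variance trend and voom, with 4, 4, 0, 5, 1 and 5 windows higher at an unadjusted p under 0.05. The call of *Tet2* window 3 as lower appeared with the replicate block and with voom, 1 window each. Near the DNA methylation genes the 7 higher calls and 1 lower call became 0 and 0 with quantile normalization (2 and 3 unadjusted) and with no variance trend (11 and 1 unadjusted). The cause of these differences was not tested.

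Without 1 library at a time, the *Tet1* median ranged from 0.56 to 1.07 and the *Tet2* median from 0.12 to 0.88. Whole-table calls ranged from 0 to 6761 higher and from 0 to 140 lower, calls at *Tet1* and *Tet2* from 0 to 5 higher and from 0 to 1 lower, and calls near the DNA methylation genes from 0 to 14 higher and from 0 to 1 lower. Every count was 0 without IAA replicate 1 and without IAA replicate 2, where the lone IAA library is assumed to vary like the others (2266 and 1402 windows higher at an unadjusted p under 0.05 over the whole table). Higher calls at *Tet1* and *Tet2* were also 0 without uninduced replicate 1, and the 6761, 5 and 14 came without uninduced replicate 2, the 5 being *Tet1* windows 1, 3, 5 and 6 and *Tet2* window 1. Where an uninduced library was left out, the lone uninduced library is likewise assumed to vary like the others. The log2 difference of the *Tet2* to *Tet1* ratio ranged from -0.84 without IAA replicate 2 to -0.25 without IAA replicate 1.

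With the replicate number as a block, 2655 windows were called higher and 52 lower over the whole table, 8 and 1 near the DNA methylation genes, and the ratio difference was -0.54. Deviations of libraries with the same number were uncorrelated (r = 0.0055). At a median of 6 to 27 reads per bound window, counting error is part of these deviations, so a shared batch cannot be told from them. Depth limits most the 6 windows with 6 reads or fewer in at least 1 library, *Tet1* windows 1, 2 and 6 and *Tet2* windows 1, 2 and 6.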
